A study of Mus musculus with 8 samples.

Results

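Expression of the semaphorin, plexin, Slit, Robo, netrin and Unc5 genes was examined in cultures of calvarial osteoblasts, bone-forming cells from the skullcap of newborn mice, after 24 hours of parathyroid hormone (PTH) or vehicle. The genes were chosen by a rule on their symbols. The rule matched 48 symbols among 47592 in the table: 20 semaphorins, 9 plexins, 3 Slits, 4 Robos, 3 netrins, 2 netrin G genes, 4 Unc5 receptors and 3 antisense transcripts of the Plxna4 locus, which are no plexins and are set apart below. Of the other 45 genes, 41 had enough counts to be tested.

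RNA was sequenced from 4 cultures given PTH and 4 given vehicle. The cells came from the calvaria of neonates 1 to 3 days old, were differentiated for 7 days, and were held for 6 hours in 0.1% serum before treatment with PTH, given as the amino-terminal fragment of the hormone at a dose that the methods give as 100 μM. The methods name PBS as the vehicle of PTH for other cultures of these cells. The sample names begin with "Con", which the labels do not explain. The genotype and strain of the mice for these cultures and the number pooled were not given in the sources used here, and the labels name adipogenic differentiation where the methods name osteogenic medium. Each treatment had n = 4, and nothing says that the 4 came from separate isolations, so that p-values measure the spread between these samples.

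These families were named for their part in guiding growing axons. Semaphorins are secreted (class 3), membrane-spanning (classes 4, 5 and 6) or lipid-anchored (class 7) ligands that signal mainly through plexins, class 3 with the neuropilins as co-receptors. Slits bind Robo receptors, and netrins bind Dcc, neogenin and the Unc5 receptors. In bone, Sema3a made by osteoblasts and nerves is known to favor bone formation over resorption, Sema4d made by osteoclasts acts on Plxnb1 of osteoblasts, and Slit3 has been tied to blood vessels and bone formation.

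Counts were scaled to the library size with edgeR's TMM factors and are given as CPM, the count per 1e6 counts of the scaled library. The treatments were compared by the quasi-likelihood test of edgeR over all 16736 genes with enough counts, and a gene was called upregulated or downregulated at a Benjamini-Hochberg adjusted p under 0.05. Total counts ranged from 33605610 to 56090654 per sample. Tnfsf11, which encodes RANKL and is a known target of PTH in osteoblasts, had 0.987 to 1.79 CPM under vehicle and 115 to 157 CPM under PTH. Pth1r, the PTH receptor, had 118 to 166 CPM under vehicle and 70.7 to 96.3 CPM under PTH. For the labelled cell type, the median of 11 osteoblast markers was between 207 and 370.1 CPM over the 8 samples, and 3 of them (Sp7, Dmp1 and Runx2) were downregulated. The median of 8 adipocyte markers was between 2.67 and 5.24 CPM, and Pparg was downregulated. The sums of 7 chondrocyte markers were 453 to 515 CPM under vehicle and 529.8 to 664 CPM under PTH, with Acan and Col2a1 upregulated, and those of 8 osteoclast markers were 454 to 561 CPM under vehicle and 442 to 628 CPM under PTH, with none called. The median over the 8 samples was 43.5 to 62.5 CPM for the chondrocyte markers but 1.70 to 3.31 CPM for the osteoclast markers. Of the latter, Calcr and Dcstamp had at most 3 counts in any sample.

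Of the 41 tested genes, 17 differed between treatments, or 41.5%, where 45.8% of all genes tested did. Of these, 7 were upregulated (23.3% of all genes were) and 10 were downregulated (22.5% of all genes were). The share of guidance genes that changed was therefore near that of the transcriptome, and what follows describes which of them changed and how far. The median log2 fold change of the 41 genes was -0.08, where that of all genes was -8.14e-04. The 4 values under PTH did not overlap the 4 values under vehicle for 14 of the 41 genes, and for 43.0% of all genes. Of the 17 genes, 13 were called in each of 6 alternative fits to all samples and in each of 8 fits with 1 sample left out, and Slit3, Sema3d, Plxnd1 and Unc5a were not.

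**Figure D1:**
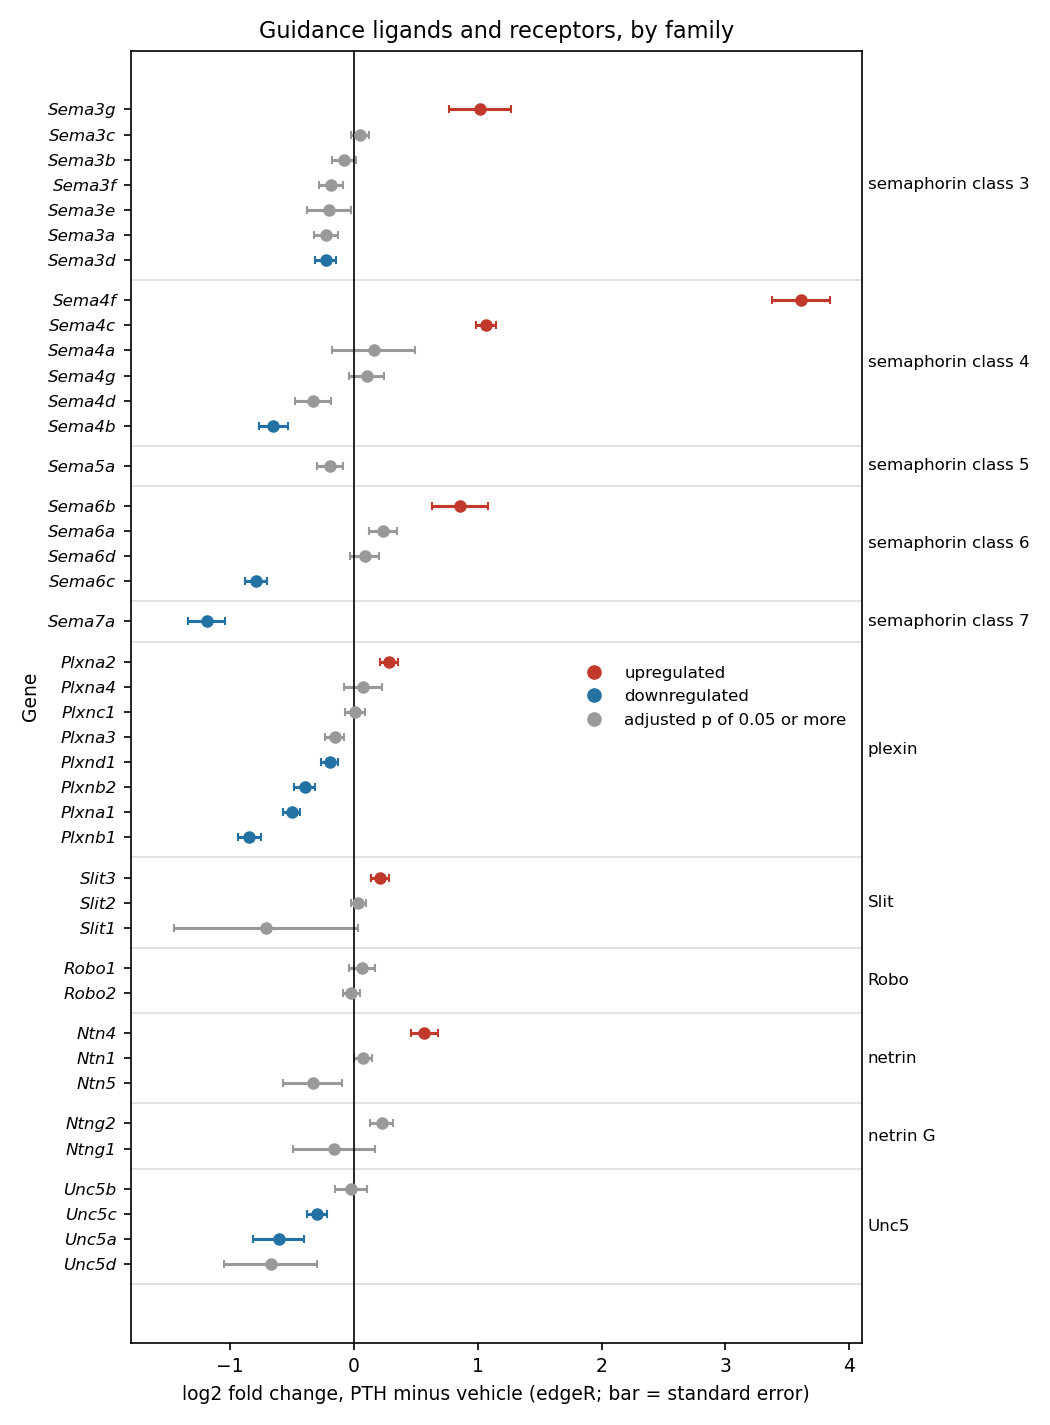
Log2 fold change (PTH minus vehicle) for the 41 tested genes, grouped by family, with n = 4 per treatment. Bars are standard errors derived from the edgeR fit. Sema4f, at 3.61, stands to the right of every other gene. Of the 8 tested plexins, 4 were called downregulated and 1 upregulated, where 22.5% and 23.3% of all genes were. The call for Plxnd1, 1 of the 4, was kept in 2 of 8 fits with 1 sample left out.

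The stretches of DNA before the start sites of several members are shown first. PTH is known to signal through cyclic AMP, and the factors that answer cyclic AMP bind the cyclic AMP response element, searched here as the whole element TGACGTCA and as its core TGACG, and AP-1 factors bind TGACTCA, each on both strands. The whole element holds the core. RefSeq sequences (GRCm38.p6) were at hand for 37 of the 45 genes, with 50 start sites in all, and the 250 bases before each were searched. Sema4f is shown as the gene with the largest increase, Sema7a as the one with the largest decrease, and Sema4c, Sema6b and Sema3d because they hold a match. Capitals mark the match, which reads as its reverse complement in Sema6b and Sema3d, and Sema4f and Sema7a hold none.
Sema4f, chr6:82939770-82940019, minus strand: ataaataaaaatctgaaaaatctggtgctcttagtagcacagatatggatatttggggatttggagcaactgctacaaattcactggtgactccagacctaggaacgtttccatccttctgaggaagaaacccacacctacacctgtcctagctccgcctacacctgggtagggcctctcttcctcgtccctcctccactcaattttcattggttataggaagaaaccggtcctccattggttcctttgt
Sema4c, chr1:36558382-36558631, minus strand: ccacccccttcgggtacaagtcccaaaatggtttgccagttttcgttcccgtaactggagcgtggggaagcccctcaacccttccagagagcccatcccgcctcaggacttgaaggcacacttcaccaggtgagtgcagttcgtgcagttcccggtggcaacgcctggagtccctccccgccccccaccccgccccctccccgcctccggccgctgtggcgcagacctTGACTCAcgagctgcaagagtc
Sema6b, chr17:56133853-56134102, minus strand: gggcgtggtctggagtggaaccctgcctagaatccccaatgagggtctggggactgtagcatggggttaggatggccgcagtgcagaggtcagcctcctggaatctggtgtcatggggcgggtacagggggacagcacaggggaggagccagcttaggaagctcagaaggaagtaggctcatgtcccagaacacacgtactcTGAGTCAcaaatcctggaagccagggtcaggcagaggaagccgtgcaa
Sema3d, chr5:12382916-12383165, plus strand: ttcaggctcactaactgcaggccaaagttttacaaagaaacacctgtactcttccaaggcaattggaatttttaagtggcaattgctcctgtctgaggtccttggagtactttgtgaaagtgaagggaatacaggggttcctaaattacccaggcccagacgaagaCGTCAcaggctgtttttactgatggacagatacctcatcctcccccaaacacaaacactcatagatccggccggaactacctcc
Sema7a, chr9:57939862-57940111, plus strand: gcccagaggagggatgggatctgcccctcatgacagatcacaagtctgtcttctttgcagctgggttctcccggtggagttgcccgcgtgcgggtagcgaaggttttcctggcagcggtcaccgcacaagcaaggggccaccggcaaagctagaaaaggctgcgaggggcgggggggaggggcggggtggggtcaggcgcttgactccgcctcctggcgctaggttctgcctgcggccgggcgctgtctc
None of the 50 sequences held the whole element, which 1.55% of all 32851 promoters of this length held. The core was found in 2 of the 50, those of Sema3d and Unc5c, or 4.0%, against 17.8% of all promoters. The AP-1 sequence was found in 1 start site each of Sema4c and Sema6b, or 4.0%, against 4.46% of all promoters. In Sema4c the match began 22 bases before the start site, in a stretch that is also exon of D430040D24Rik, a gene on the opposite strand with at most 93 counts in any sample. The second start sites of Sema4c and Sema6b held no match. A match describes these letters and not a bound site.

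Sema4f and Sema4c, which encode membrane-spanning semaphorins of class 4, were upregulated, while Sema4b of the same class was downregulated. Sema4f, on chromosome 6 from 82911885 to 82939769, had 1.05, 0.987, 0.876 and 0.524 CPM in the 4 vehicle-treated samples and 12.5, 10.8, 7.41 and 11.1 CPM in the 4 PTH-treated samples. The lowest PTH-treated sample was thus far above the highest vehicle-treated sample, and the gene rose 12.2-fold (log2 fold change 3.61 with a standard error of 0.232, adjusted p = 1.20e-07). These values rest on 26 to 47 counts per sample under vehicle and 284 to 643 per sample under PTH. Sema4f is known from neurons and Schwann cells, and the summed level of 8 neuron markers was 19.7 to 26.8 CPM under vehicle and 33.7 to 45.2 CPM under PTH. Of these markers Tubb3, Nefl and Nefm were upregulated, and Tubb3, at a mean of 9.73 CPM under vehicle and 27.4 CPM under PTH, made up most of the difference in the sum. Stmn2 (log2 fold change -0.26, adjusted p = 0.0640), Snap25 and Syt1 were not called, Rbfox3 and Elavl4 had at most 4 and 12 counts in any sample, and their part in the result was not tested. In cultures of mixed cells, a change in the number of cells of a type and a change in RNA per cell cannot be told apart. The 7 Schwann cell markers summed to 24.1 to 28.6 CPM under vehicle and 22.0 to 28.8 CPM under PTH, and none of the 5 tested was called.

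Sema4c, a ligand of Plxnb2 on chromosome 1 from 36548639 to 36558349, had 23.5, 21.7, 22.7 and 21.7 CPM under vehicle and 47.1, 50.3, 40.3 and 49.8 CPM under PTH. Its treatments did not overlap either, and its level rose 2.09-fold (log2 fold change 1.06 with a standard error of 0.0812, adjusted p = 5.37e-07). Sema4b, on chromosome 7 from 80186841 to 80226527, went the other way, from 12.4, 12.5, 12.02 and 12.8 CPM under vehicle to 6.59, 8.42, 7.28 and 9.34 CPM under PTH (log2 fold change -0.65 with a standard error of 0.116, adjusted p = 6.64e-04), again without overlap. Sema4d, the ligand of Plxnb1, had 13.3, 13.8, 14.2 and 20.6 CPM under vehicle and 12.3, 12.3, 10.4 and 14.3 CPM under PTH. The treatments overlapped for Sema4d, vehicle replicate 4 stood above all other samples, and the gene was not called (log2 fold change -0.33 with a standard error of 0.148, adjusted p = 0.0895; adjusted p = 0.0423 in the fit with the sample number as a block).

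Sema4d is also made by cells of the blood lineage, and macrophage genes were present in these cultures. The summed level of 10 macrophage markers was 1043 to 1689.6 CPM under vehicle and 1632 to 2115 CPM under PTH. Lyz2, at a mean of 914 CPM under vehicle and 1417 CPM under PTH, made up most of the sum and of its difference. The median of the 10 markers was 38.3 to 66.9 CPM over the 8 samples. All 10 had a positive log2 fold change, and 2 of the 10, Lyz2 and Tyrobp, were called upregulated. Vehicle replicate 4 had the highest macrophage sum of the vehicle-treated samples, and its part in the value of Sema4d was not tested. The remaining members of the class were not called. Sema4g had 6.20 ± 1.005 CPM under vehicle and 6.66 ± 0.652 CPM under PTH (mean ± SD, n = 4 for each; log2 fold change 0.10, adjusted p = 0.576). Sema4a, which is known from immune cells, had 32 to 61 counts per vehicle-treated and 29 to 78 per sample under PTH (log2 fold change 0.16, adjusted p = 0.731).

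To compare genes of different length, CPM was divided by the length of the longest annotated transcript of the gene, giving CPM per kb. On this scale the class 4 genes together made up 7.86% to 9.33% of all semaphorin transcripts in the vehicle-treated samples and 10.8% to 13.8% in the PTH-treated samples. Within the class, Sema4f had 0.823% to 1.86% under vehicle and 10.1% to 14.2% under PTH, and Sema4c had 35.8% to 43.7% and 55.8% to 58.0%. The share of Sema4b was 20.7% to 23.1% under vehicle and 7.70% to 10.4% under PTH. Sema4c was the most abundant of the 6 genes in each treatment. These shares contain the members whose change was tested above and are given as a description.

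**Figure D2:**
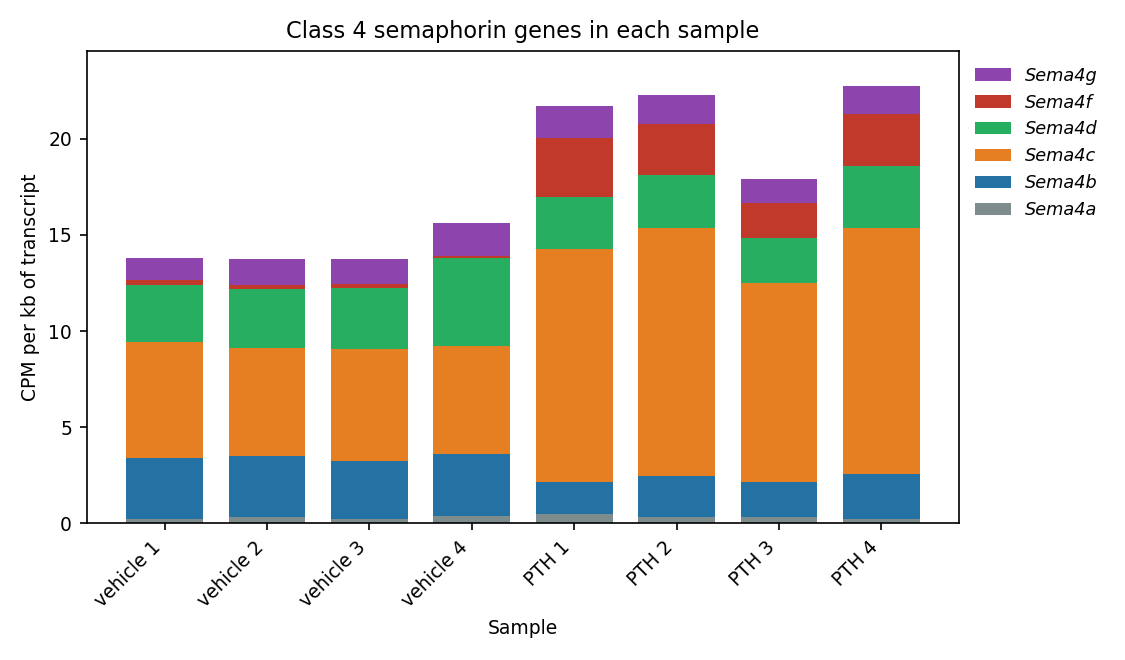
Level per kb of transcript (CPM per kb, from 0) of the 6 class 4 semaphorin genes, stacked for each of the 8 samples. The 4 PTH-treated samples reach 17.9 to 22.8 CPM per kb and the 4 vehicle-treated samples 13.7 to 15.6, with the thin band of Sema4f widened under PTH.

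The secreted class 3 semaphorins held most of the semaphorin transcripts, 79.7% to 80.8% of them per kb under vehicle and 77.2% to 80.7% under PTH, and the most abundant of them, Sema3c and Sema3b, were not called. Sema3c had 359.6 ± 24.7 CPM under vehicle and 372 ± 18.1 CPM under PTH (log2 fold change 0.05 with a standard error of 0.0720, adjusted p = 0.603). Sema3b, a ligand of neuropilins, had 85.9 ± 7.01 and 81.2 ± 11.4 CPM (log2 fold change -0.08 with a standard error of 0.0985, adjusted p = 0.534). The treatments overlapped for both genes.

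Sema3a, which binds Nrp1 and is the semaphorin best known in bone, had 103, 108, 110.0 and 111 CPM under vehicle and 109, 75.4, 87.6 and 97.6 CPM under PTH. PTH replicate 1 lay within the vehicle-treated samples and the other 3 lay below them, and the gene was not called (log2 fold change -0.22 with a standard error of 0.0964, adjusted p = 0.0782). Without PTH replicate 1 it was called downregulated (adjusted p = 0.00846). Sema3d, also on chromosome 5, had 118, 120.3, 126 and 112 CPM under vehicle and 112, 85.3, 98.0 and 110.2 CPM under PTH. The treatments overlapped slightly (two-sided exact permutation test on log2(CPM + 0.1), p = 0.0571, where 0.0286 is the smallest p that 4 against 4 allows), and Sema3d was just past the threshold (log2 fold change -0.23 with a standard error of 0.0862, adjusted p = 0.0468).

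That call for Sema3d was lost in 6 of 8 fits with 1 sample left out, with adjusted p = 0.118 without PTH replicate 2, 0.123 without PTH replicate 3, and 0.0903, 0.107, 0.125 and 0.0602 without vehicle replicates 1, 2, 3 and 4. It was also lost with DESeq2 (adjusted p = 0.0603). Sema3f, a ligand of Nrp2, had 30.9 to 35.4 CPM under vehicle and 24.1 to 33.7 CPM under PTH, and it passed the test only without PTH replicate 1 (adjusted p = 0.144 with all samples and 0.0310 without it). Sema3e, which signals through Plxnd1, had 3.53 to 4.94 and 3.19 to 4.33 CPM (log2 fold change -0.20, adjusted p = 0.380).

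Sema3g, on chromosome 14 from 31217860 to 31230352, was the 1 class 3 gene to be upregulated. It had 1.70, 0.987, 1.54 and 1.41 CPM under vehicle and 3.37, 3.25, 1.93 and 2.90 CPM under PTH, without overlap, and rose 2.03-fold (log2 fold change 1.02 with a standard error of 0.250, adjusted p = 0.00534). Its level was low, with 43 to 76 counts per sample under vehicle and 74 to 173 per sample under PTH. Sema3g is known from blood vessels, and the summed level of 10 endothelial markers was 9.39 to 10.8 CPM under vehicle and 9.33 to 11.3 CPM under PTH, with Emcn at 0 counts in every sample and Cldn5 at no more than 4. Of the endothelial markers Kdr was upregulated and Tek was downregulated.

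Several class 3 genes lie near each other. Sema3d, Sema3a, Sema3e and Sema3c follow on chromosome 5 between 12383385 and 17730268 (GRCm38, GENCODE M21), with log2 fold changes of -0.23, -0.22, -0.20 and 0.05 in that order. Sema3b and Sema3f lie on chromosome 9 between 107597674 and 107710475, with log2 fold changes of -0.08 and -0.18. Sema3d alone among these 6 genes passed the threshold.

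In classes 5, 6 and 7, Sema7a and Sema6c were downregulated and Sema6b was upregulated. Sema7a, on chromosome 9 from 57940112 to 57962865, encodes the lipid-anchored semaphorin, which binds Plxnc1 and β1 integrin. It had 8.19, 9.78, 8.80 and 9.33 CPM under vehicle and 4.58, 3.40, 3.18 and 4.61 CPM under PTH. Every PTH-treated sample was below every vehicle-treated sample, and the level was 2.28-fold lower under PTH (log2 fold change -1.19 with a standard error of 0.149, adjusted p = 4.49e-05), the largest decrease among the 41 genes.

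Sema6c, on chromosome 3 from 95160457 to 95174024, had 31.8, 31.1, 31.9 and 27.01 CPM under vehicle and 18.9, 18.3, 15.4 and 17.7 CPM under PTH. Its treatments did not overlap, and the level was 1.73-fold lower under PTH (log2 fold change -0.79 with a standard error of 0.0882, adjusted p = 1.61e-05). Sema6b, on chromosome 17 from 56123085 to 56140343, had 1.85, 1.86, 1.06 and 1.49 CPM under vehicle and 2.71, 3.19, 2.74 and 2.71 CPM under PTH. It was scarce, with at most 139 counts in any sample, but its treatments were apart as well (log2 fold change 0.86 with a standard error of 0.224, adjusted p = 0.00786).

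The other class 6 genes, Sema6a and Sema6d, had 11.6 to 14.8 and 11.6 to 13.8 CPM under vehicle. Under PTH they had 12.9 to 17.5 and 10.6 to 15.3 CPM. Neither was called (log2 fold change 0.23, adjusted p = 0.113 for Sema6a and 0.09, adjusted p = 0.572 for Sema6d), although Sema6a passed without PTH replicate 1 (adjusted p = 0.0336). Sema5a, which carries thrombospondin repeats, had 46.2 to 57.8 CPM under vehicle and 40.6 to 54.4 CPM under PTH (log2 fold change -0.19, adjusted p = 0.153; adjusted p = 0.0108 without PTH replicate 1). Sema5b had too few counts to be tested, 0, 0, 3 and 4 under vehicle and 9, 13, 4 and 12 under PTH, although DESeq2, which applies another filter, called it upregulated (adjusted p = 0.0370).

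**Figure D3:**
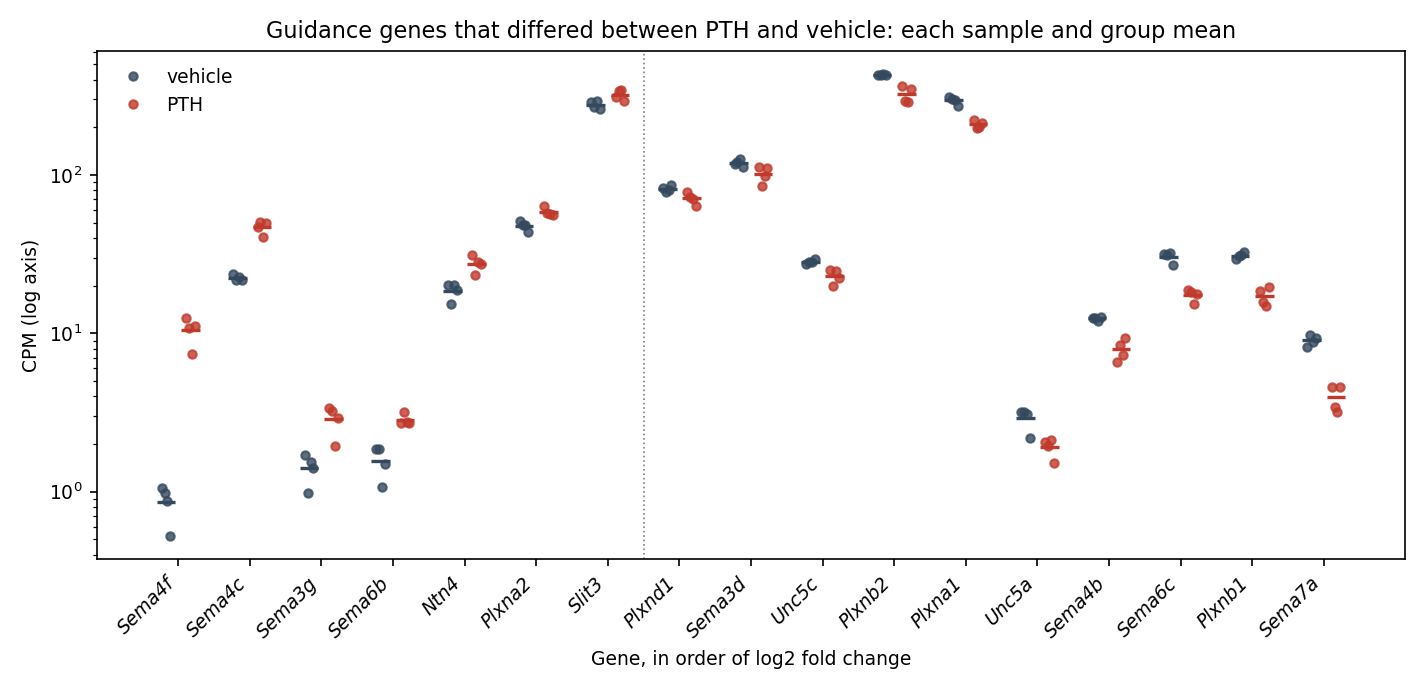
CPM (log axis) of the 17 genes that differed, with a point for each of the 4 samples per treatment and a line at the group mean, in order of log2 fold change from Sema4f at 3.61 to Sema7a at -1.19. The dotted line divides the 7 upregulated from the 10 downregulated genes, and the points of the treatments interleave for Slit3, Plxnd1 and Sema3d.

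Among the plexins, the receptors of semaphorins, Plxnb1, Plxna1, Plxnb2 and Plxnd1 were downregulated and Plxna2 was upregulated. That was 5 of 8 tested plexins, where 45.8% of all genes were called, 22.5% downregulated and 23.3% upregulated. Plxnb1, the receptor of Sema4d on chromosome 9 from 109095389 to 109119917, had 29.5, 30.6, 31.1 and 32.8 CPM under vehicle and 18.6, 15.9, 14.9 and 19.5 CPM under PTH. Its vehicle-treated samples formed a narrow group well above all PTH-treated samples, and the level was 1.80-fold lower under PTH (log2 fold change -0.85 with a standard error of 0.0940, adjusted p = 1.61e-05).

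Plxna1, a receptor for class 3 semaphorins with neuropilins and for Sema6d, lies on chromosome 6 from 89316314 to 89362620. It had 309, 303, 298 and 272 CPM under vehicle and 221, 198, 201 and 214 CPM under PTH, without overlap (log2 fold change -0.50 with a standard error of 0.0683, adjusted p = 8.19e-05). Plxnb2, a receptor of Sema4c on chromosome 15 from 89155549 to 89180788, had 426, 426, 435 and 426 CPM under vehicle and 365, 293, 290.1 and 349.8 CPM under PTH. The PTH-treated samples of Plxnb2 were spread more widely than the vehicle-treated ones but lay below all of them (log2 fold change -0.40 with a standard error of 0.0839, adjusted p = 0.00205).

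Plxnd1, the receptor of Sema3e, had 83.2, 78.0, 80.4 and 85.8 CPM under vehicle and 78.1, 72.5, 71.0 and 64.1 CPM under PTH. PTH replicate 1 was level with the lowest vehicle-treated sample, so that the treatments touched (two-sided exact permutation test, p = 0.0571), and the call (log2 fold change -0.20 with a standard error of 0.0701, adjusted p = 0.0371) was lost in 6 of 8 fits that left out a sample. The adjusted p of Plxnd1 was 0.0591, 0.0743 and 0.113 without PTH replicates 2, 3 and 4, and 0.0772, 0.0652 and 0.0995 without vehicle replicates 1, 3 and 4. Plxna2, on chromosome 1 from 194618218 to 194816869, rose from 51.2, 48.4, 48.5 and 43.5 CPM under vehicle to 63.3, 57.2, 56.6 and 55.7 CPM under PTH, a small but separate shift (log2 fold change 0.28 with a standard error of 0.0709, adjusted p = 0.00636).

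The other plexins were not called. Plxna3 had 28.4 to 33.8 CPM under vehicle and 26.2 to 29.5 CPM under PTH (log2 fold change -0.16, adjusted p = 0.116). Plxnc1, the receptor of Sema7a, had 23.3 to 28.8 and 24.7 to 26.8 CPM (log2 fold change 0.01, adjusted p = 0.936), and Plxna4 had 5.68 to 9.46 and 7.18 to 8.95 CPM (log2 fold change 0.07, adjusted p = 0.732). Plxnb3 could not be tested, with at most 22 counts in any sample. The antisense transcripts Plxna4os1, Plxna4os2 and Plxna4os3 had at most 15, 2 and 0 counts.

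Summed per kb, the plexin genes had 127 ± 1.99 CPM per kb under vehicle and 98.9 ± 7.87 under PTH (mean ± SD, n = 4 for each), of which Plxnb2 and Plxna1 were the largest part. In the vehicle-treated samples Plxnb2, at 65.5 to 66.9 CPM per kb, and Sema3c, at 58.8 to 68.4, headed all guidance genes and overlapped each other. Slit3 followed at 49.7 to 56.4 and lay below every sample of both. Under PTH the order of the leading genes was Sema3c at 63.2 to 70.2 CPM per kb, Slit3 at 56.1 to 66.0 and Plxnb2 at 44.7 to 56.2. Of those 3, Sema3c and Slit3 overlapped, as did Slit3 and Plxnb2.

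The co-receptors and other partners of these families were taken from a list of 75 genes, of which 74 were in the table and 72 were tested. Of the receptors and ligands on it, 6 of 24 tested were upregulated and 6 were downregulated, where 23.3% and 22.5% of all genes were. Nrp1, the co-receptor of Sema3a, had 84.7, 85.8, 89.5 and 94.4 CPM under vehicle and 151, 123, 118 and 137 CPM under PTH, all higher (log2 fold change 0.58 with a standard error of 0.0813, adjusted p = 1.09e-04). Nrp2, the co-receptor of Sema3f, had 318 to 341 CPM under vehicle and 245 to 343 CPM under PTH and was not called (log2 fold change -0.16 with a standard error of 0.0988, adjusted p = 0.208), except without PTH replicate 1 (adjusted p = 0.0269).

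Met, the receptor of hepatocyte growth factor, which forms complexes with B-type plexins, rose from between 4.90 and 7.32 CPM to between 25.5 and 30.4 CPM (log2 fold change 2.18 with a standard error of 0.123, adjusted p = 3.73e-08). Erbb2, a receptor kinase that also pairs with B-type plexins, fell from between 31.5 and 36.5 CPM to between 13.8 and 17.4 CPM (log2 fold change -1.07 with a standard error of 0.0879, adjusted p = 1.08e-06). So the plexin Plxnb1 and its partner Erbb2 had lower transcript levels under PTH while its other partner Met had a higher one. Kdr, a receptor of vascular endothelial growth factor that binds neuropilin, was upregulated at a low level, from 15 to 61 counts per vehicle-treated sample to 37 to 105 per sample under PTH (log2 fold change 1.51, adjusted p = 0.0107). Tyrobp and Trem2, which signal with Plxna1 in myeloid cells, were upregulated (log2 fold change 0.86, adjusted p = 0.00133 for Tyrobp and 0.64, adjusted p = 0.00295 for Trem2). Tyrobp is itself among the macrophage markers given above, and Trem2 was named after its value was seen.

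Of the Slits and their receptors, Slit3 alone passed the test. Slit3, on chromosome 11 from 35121224 to 35708507, had 288, 270.2, 295 and 260.0 CPM under vehicle and 310.4, 338, 345 and 294 CPM under PTH. The highest vehicle-treated sample was above the lowest PTH-treated one (two-sided exact permutation test, p = 0.0571), and the increase was small (log2 fold change 0.21 with a standard error of 0.0741, adjusted p = 0.0365). It was called in 3 of 8 fits with 1 sample left out, and its adjusted p was 0.0516 and 0.111 without PTH replicates 2 and 3, and 0.0572, 0.120 and 0.115 without vehicle replicates 1, 2 and 4.

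Slit2 had 180.3 ± 5.61 CPM under vehicle and 185 ± 7.09 CPM under PTH (log2 fold change 0.03 with a standard error of 0.0593, adjusted p = 0.673). Slit1 was near the limit of detection, with 10 to 43 counts per vehicle-treated and 0 to 21 per sample under PTH (log2 fold change -0.71, adjusted p = 0.467), and a difference could not be resolved at this depth. Robo1 and Robo2, both on chromosome 16 and encoding the main Slit receptors, had 116 ± 10.1 and 138 ± 2.39 CPM under vehicle and 121 ± 18.2 and 136 ± 11.3 CPM under PTH. Neither was called (log2 fold change 0.07 with a standard error of 0.104, adjusted p = 0.638 for Robo1 and -0.02, standard error 0.0685, adjusted p = 0.802 for Robo2). Robo3 had at most 8 counts in any sample and Robo4, the Robo of blood vessels, at most 2, and they were not tested.

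Inside the cell, Robo receptors act through the Srgap proteins. Srgap1 rose from 12.1, 12.9, 13.6 and 15.9 CPM under vehicle to 34.2, 37.9, 35.6 and 35.7 CPM under PTH (log2 fold change 1.39 with a standard error of 0.0913, adjusted p = 1.38e-07), although the Robo genes themselves were not called. The more abundant Srgap2 went the other way, from between 76.7 and 93.3 CPM to between 62.0 and 69.9 CPM (log2 fold change -0.38, adjusted p = 0.00112). Srgap3 was not called (log2 fold change -0.17, adjusted p = 0.0758). Srgap2 and Srgap3 were named after their values were seen. Srgap1 was among 7 upregulated genes of 48 tested effectors, and 18 were downregulated, where 23.3% and 22.5% of all genes were. Other effectors with large increases were Rnd1, a GTPase that binds plexins (log2 fold change 1.84, adjusted p = 7.80e-06), and Rras2, a relative of the Ras proteins on which plexins act (log2 fold change 1.39, adjusted p = 1.83e-06). Ablim3, which binds actin, was called at 6 to 14 counts per vehicle-treated and 10 to 38 per sample under PTH (log2 fold change 1.24, adjusted p = 0.0494), a call kept in 1 of 8 fits without a sample and lost without PTH replicates 1, 2 or 3 or any vehicle replicate (adjusted p of 0.0262 to 0.146 over the 8).

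The largest decreases among effectors were those of Farp2 and Nck2. Farp2, which acts for Plxna1 in the response to Sema3a, fell from 56.6, 63.3, 68.2 and 69.7 CPM under vehicle to 31.8, 28.3, 27.5 and 27.8 CPM under PTH (log2 fold change -1.16 with a standard error of 0.0822, adjusted p = 2.80e-07). Nck2, an adaptor that links receptors to actin, fell from between 31.4 and 32.7 CPM to between 15.5 and 17.1 CPM (log2 fold change -0.98, adjusted p = 2.49e-07). Dpysl2, which encodes the semaphorin mediator CRMP2, had 33.3 to 37.3 CPM under vehicle and 17.9 to 22.7 CPM under PTH (log2 fold change -0.77, adjusted p = 1.31e-05). Arhgap35 had 128 to 135 and 71.4 to 83.8 CPM (log2 fold change -0.74, adjusted p = 2.47e-06).

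**Figure D4:**
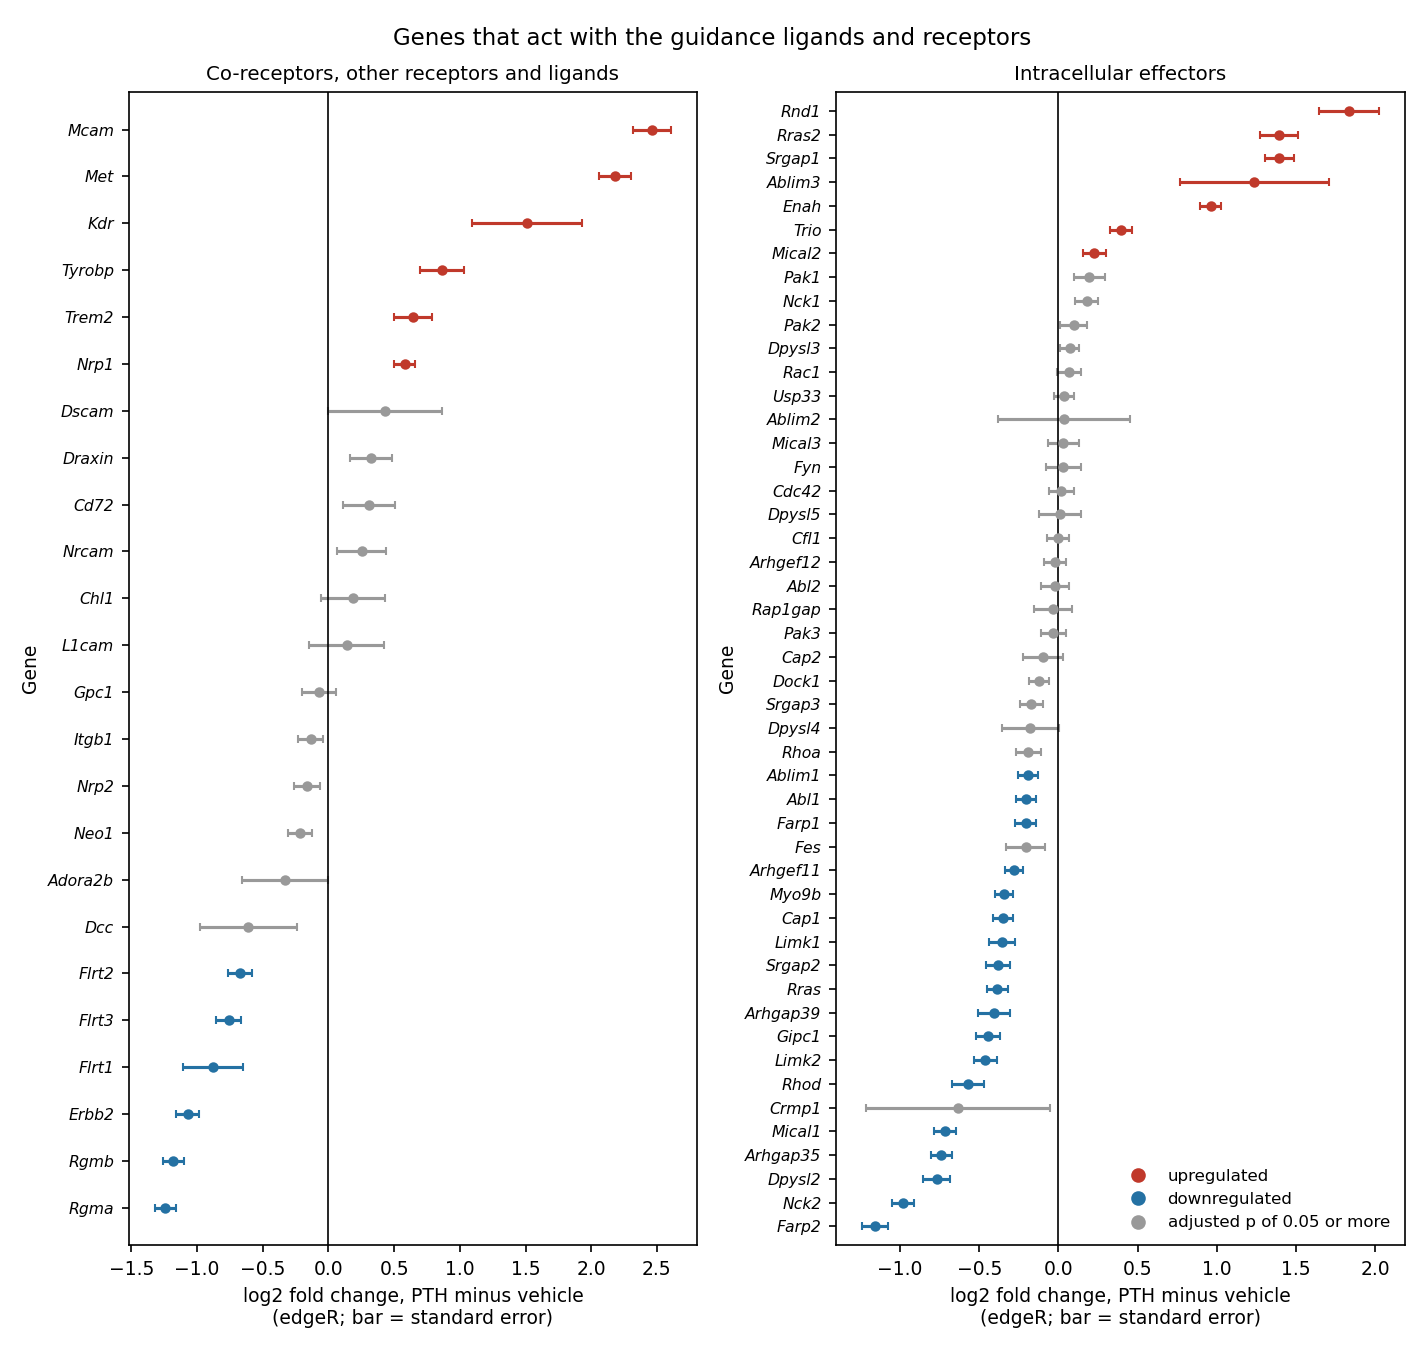
Log2 fold change (PTH minus vehicle) for the 24 tested partner receptors and ligands (left) and the 48 tested intracellular effectors (right). Bars are standard errors derived from the edgeR fit, with n = 4 per treatment. Mcam at 2.46 and Met at 2.18 head the left panel and Rgma at -1.24 and Rgmb at -1.18 close it, and on the right Rnd1 is highest at 1.84 and Farp2 lowest at -1.16.

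Of the netrins, Ntn4 was upregulated. Ntn4, on chromosome 10 from 93640681 to 93747207, encodes a netrin of basement membranes that binds laminins. It had 20.3, 15.2, 20.05 and 18.8 CPM under vehicle and 31.1, 23.5, 28.2 and 27.2 CPM under PTH, without overlap, a 1.48-fold rise (log2 fold change 0.57 with a standard error of 0.110, adjusted p = 0.00118). Ntn1 had 30.5 ± 2.05 CPM under vehicle and 32.0 ± 1.83 CPM under PTH (log2 fold change 0.07 with a standard error of 0.0742, adjusted p = 0.469).

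Ntn5 had 3.24, 2.89, 3.25 and 3.49 CPM under vehicle and 3.90, 1.96, 1.93 and 2.35 CPM under PTH. PTH replicate 1 was the highest of all 8 samples and the other 3 PTH-treated samples were the lowest (log2 fold change -0.33, adjusted p = 0.274; adjusted p = 0.0204 without PTH replicate 1). The membrane-anchored Ntng2 had 10.4 to 12.9 and 12.6 to 14.1 CPM and was not called (log2 fold change 0.22, adjusted p = 0.0718), except without vehicle replicate 2 (adjusted p = 0.0466). Its assembled locus also holds 6530402F18Rik, which shares 558 exon bases with it, so the counts of the pair may have been divided between them. Ntng1 had 0.735 to 1.49 and 0.644 to 1.32 CPM (log2 fold change -0.16, adjusted p = 0.727).

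Among the netrin receptors, Unc5c and Unc5a were downregulated. Unc5c, on chromosome 3 from 141465216 to 141834924, had 27.2, 28.4, 28.3 and 29.5 CPM under vehicle and 25.0, 19.9, 24.6 and 22.5 CPM under PTH, without overlap (log2 fold change -0.30 with a standard error of 0.0833, adjusted p = 0.0111). Unc5a had 3.19, 3.19, 3.09 and 2.20 CPM under vehicle and 2.05, 1.96, 2.11 and 1.52 CPM under PTH. Vehicle replicate 4 lay close above the highest PTH-treated sample, and the call (log2 fold change -0.61 with a standard error of 0.206, adjusted p = 0.0295) was lost without PTH replicate 4 (adjusted p = 0.0796) and without vehicle replicate 1, 2 or 3 (0.0688, 0.0699 and 0.0697). Unc5a also shares 34 exon bases with Hk3 on the opposite strand, which had up to 639 counts, and the strand setting of the counting was not given. Exons on the opposite strand were also shared by Ntn5 with Sec1, Plxna1 with Gm26811, Plxnb1 with Gm7628 and Unc5c with Gm15688, which had at most 70, 56, 27 and 13 counts in any sample. Sema4c shared 334 exon bases with D430040D24Rik on the opposite strand, which had at most 93 counts. Plxna4 likewise shared exon bases with Plxna4os3, which had 0 counts.

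Unc5b, the most abundant receptor of this family, had 90.1 to 123 CPM under vehicle and 82.6 to 116 CPM under PTH (log2 fold change -0.02 with a standard error of 0.129, adjusted p = 0.900). Unc5d was scarce, with at most 48 counts in any sample (log2 fold change -0.67, adjusted p = 0.167). Neo1, which encodes neogenin, had 205 to 229 CPM under vehicle and 159.8 to 213 CPM under PTH and was not called (log2 fold change -0.21 with a standard error of 0.0918, adjusted p = 0.0757), except without PTH replicate 1 (adjusted p = 0.0229). Dcc, the founding netrin receptor, had 30 to 41 counts per sample under vehicle and 14 to 28 under PTH (log2 fold change -0.61, adjusted p = 0.203).

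Rgma, Rgmb and the Flrt genes, which encode other ligands of neogenin and of the Unc5 receptors, were downregulated. Rgma, a repulsive guidance molecule that binds neogenin and bone morphogenetic proteins, had 92.9, 90.6, 88.2 and 75.4 CPM under vehicle and 40.2, 35.9, 35.9 and 34.6 CPM under PTH (log2 fold change -1.24 with a standard error of 0.0804, adjusted p = 1.25e-07). Its relative Rgmb had 25.8 to 29.9 CPM under vehicle and 11.5 to 13.3 CPM under PTH (log2 fold change -1.18 with a standard error of 0.0822, adjusted p = 2.40e-07). Flrt1, a membrane protein that binds Unc5 receptors, fell from between 3.43 and 4.998 CPM to between 1.504 and 2.98 CPM (log2 fold change -0.88, adjusted p = 0.00690). Flrt2 (log2 fold change -0.67, adjusted p = 7.60e-05) and Flrt3 (log2 fold change -0.76, adjusted p = 4.85e-05), named after their values were seen, fell as well. Mcam, which binds netrin-1, rose from between 3.55 and 5.24 CPM to between 18.9 and 27.3 CPM (log2 fold change 2.46 with a standard error of 0.147, adjusted p = 5.96e-08). Mcam also marks smooth muscle and pericytes, whose 7 markers summed to 1819 to 2176 CPM under vehicle and 1688 to 2189.8 CPM under PTH, with Mcam and Cnn1 upregulated and Acta2 downregulated. The median of these markers was 12.8 to 27.3 CPM over the 8 samples, so a few abundant genes made up most of the sum.

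Over all 24 guidance genes that were not called, the log2 fold change lay between -0.71 and 0.23, and for the 16 of them with a mean of at least 10 CPM it lay between -0.33 and 0.23, with standard errors of 0.0593 to 0.148.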

How the data were processed

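RNA of 8 cultures, 4 per treatment, was enriched for poly(A) and sequenced in pairs of 150 bases. Per the methods, the authors aligned reads to GRCm38 (mm10 in the labels) with HISAT2, assembled transcripts with StringTie2 and wrote a gene matrix with its companion script. The authors deposited these as raw counts, 1 column per sample. Such scripts assume 75 bases a read by default, so a count may stand for more than 1 count per read pair; whether the default was used, the annotation and the strand setting were not given in the sources used here. Symbols were read from the row names, and of the 45 genes and 3 antisense transcripts matched, 34 lay in rows named by the assembly. Coordinates and lengths came from GENCODE M21, and promoters from RefSeq (GRCm38.p6).

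Genes were kept with edgeR 4.0.16 filterByExpr (minimum count 10, minimum total 15), scaled by TMM and tested by glmQLFTest with PTH against vehicle as the sole term, with Benjamini-Hochberg adjustment over 16736 genes. The standard error was taken as the absolute log2 fold change divided by the square root of the F statistic of edgeR. Exact permutation tests used log2(CPM + 0.1). Level per kb is CPM divided by the length of the longest transcript, whichever transcript the cells use. Total counts of 33605610 to 56090654 set the counting precision. Alternatives were DESeq2 1.42.0, its size factors in edgeR, no filter, a replicate block, each sample left out, halved counts, summed rows of a symbol, a minimum fold and loci with a single symbol. The fits were tested on simulated data. Correlations of log CPM across genes were 0.974 to 0.986 within treatments and 0.937 to 0.949 between them, and no library was a copy of another.

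All members were named. Of the partner genes, Nrp1, Nrp2, Neo1 and Dcc were always named, with the 4 largest increases and 4 largest decreases past the threshold in each list. The partner Hjv was not matched. The members and lists were chosen with earlier results of these data known.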

Additional observations from a re-analysis of the deposited data

Results flagged for a closer look

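In 6 of 82 groups of 4 samples, 1 sample stood apart from the other 3 by Dixon's test of the gap against the range, which chance does in about 1 of 20 groups. Vehicle replicate 4 was that sample 4 times. For Sema4d it had 20.6 CPM, where the other vehicle-treated samples had 13.3 to 14.2. For Unc5a it had 2.20 CPM against 3.09 to 3.19, for Sema6c 27.01 CPM against 31.1 to 31.9, and for Sema3c 323 CPM against 369 to 375. Vehicle replicate 3 had 435 CPM of Plxnb2, where the others had 425.5 to 426.3, and PTH replicate 2 had 3.19 CPM of Sema6b, where the others had 2.71 to 2.74. The calls for Plxnb2, Sema6b and Sema6c were kept without each of these samples, and the reason these samples stood apart was not tested.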

How the results depend on the processing

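With the added minimum of 1 on the absolute log2 fold change, 3 guidance genes were upregulated and 1 was downregulated, and 11.2% of all genes tested passed this minimum and the test. Leaving out each sample in turn gave 6 to 8 upregulated and 7 to 14 downregulated guidance genes, and 11 to 13 upregulated and 21 to 27 downregulated partner genes. The 14 came without PTH replicate 1, when 22 guidance genes were called. These held all 17 of the full fit and Sema3a, Sema3f, Sema5a, Ntn5 and Sema6a. The share of all genes called in that fit is not given here, so the 22 cannot be set against it. The remaining alternatives gave 6 to 8 upregulated and 8 to 10 downregulated guidance genes, and 11 to 14 and 21 to 24 partner genes. Of 573 values of single guidance genes under the alternatives, 536 kept their side of the threshold, 30 lost a call and 7 gained one, and none changed direction with a call. The cause of these changes was not tested.

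No pairing of the samples by number was seen. The correlation of deviations between samples of the same number was -0.04 to 0.03, and 1 of 8 samples correlated best with its own number. These values cannot show whether samples of the same number shared an isolation, which was not stated. With the number as a block, 15 guidance genes were called (6 upregulated, 9 downregulated), of which 14 were shared with the fit without it. Slit3 (adjusted p = 0.0621), Plxnd1 (0.0706) and Sema3d (0.0705) were lost, and Sema4d (0.0423) was gained. With the size factors of DESeq2 in edgeR, Plxnd1 (adjusted p = 0.0539) and Sema3d (0.0707) were lost. Without the filter, Slit3 (0.1002) and Sema3d (0.0616) were lost. With halved counts, Sema3d (0.0521) was lost. Genes at a few counts, among them Slit1, Plxnb3, Robo3 and Robo4, could not be resolved at this depth.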
